A study of Mus musculus with 27 samples.

Results

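Mouse thyroid tumor cell lines that had lost Arid2 were compared with lines that had lost Smarcb1, both in vehicle. The comparison uses 6 of the 27 libraries of the series. They are the vehicle libraries of 3 Arid2 KO lines (AB51189, AB52980 and AB55694) and of 3 Smarcb1 KO lines (BS53736, BS53958 and BS53965), chosen by the genotype and treatment in the column names, and values are given in that order of lines. All 6 lines carry Braf(V600E), a kinase mutation that keeps the MAPK pathway active, so both knockouts sit on the same oncogene. Per the labels, vehicle was 40% Trappsol for 8 days, and the wording does not settle whether bovine TSH was added. The 3 Arid1a KO lines, which also carry Braf(V600E), and the 3 lines with Braf(V600E) alone (Braf lines), all in vehicle, helped to estimate the spread between lines. The lines were grown from dissected tumors, so each line stands for 1 tumor culture, and the labels do not give the Cre driver, the deleted exons or the age of the mice.

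SWI/SNF complexes use ATP to move nucleosomes and so open promoters and enhancers. They come in several assemblies: canonical BAF, which holds an Arid1 subunit, PBAF, which holds Arid2 and Pbrm1, and ncBAF, which holds Brd9. Smarcb1 is a core subunit of both BAF and PBAF and is absent from ncBAF. Loss of Arid2 therefore removes a subunit particular to PBAF, while loss of Smarcb1 removes one that BAF and PBAF share. In thyroid follicular cells, Pax8, Nkx2-1 and Foxe1 are the lineage factors, and Tg and Slc5a5 belong to hormone production.

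The 6 libraries held 20043316 to 24065456 counts, and replicate lines correlated at 0.929 to 0.935 among Arid2 KO and at 0.894 to 0.932 among Smarcb1 KO lines (Pearson's r of log2 CPM across genes, which are not independent replicates). Smarcb1 itself was at 81.6, 83.9 and 69.8 CPM (CPM, a gene's reads scaled to the TMM-adjusted size of the library) in Arid2 KO lines, against 0.0467, 1.17 and 0.17 CPM in Smarcb1 KO lines (log2 change 7.41 ± 0.79, adjusted p = 0.00179 from edgeR's quasi-likelihood test). Its loss was thus visible in all 3 Smarcb1 KO lines. Arid2 was at 105, 78.6 and 98.3 CPM in Arid2 KO lines, against 115, 78 and 117 CPM in Smarcb1 KO lines (log2 change -0.13 ± 0.2, adjusted p = 0.716). Counts over a whole gene do not check the removal of part of it, so the Arid2 KO label was not checked by this value. The thyroid lineage factor Nkx2-1 was read in all 6 lines, at 72.4, 74.1 and 220 CPM in Arid2 KO lines, against 74.7, 26.5 and 24.3 CPM in Smarcb1 KO lines. Foxe1 had 34, 10 and 12 counts in Arid2 KO lines and 0 counts in the Smarcb1 KO lines. Slc5a5 stayed at or under 1.8 CPM. Leukocyte markers summed to 3.49 to 9.89 CPM over the 10 marker genes in Arid2 KO lines, against 3.23 to 13.4 CPM in Smarcb1 KO lines. Xist was on in 1 of 3 lines of each genotype (AB51189 and BS53965), so sex was balanced between them.

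**Figure D1:**
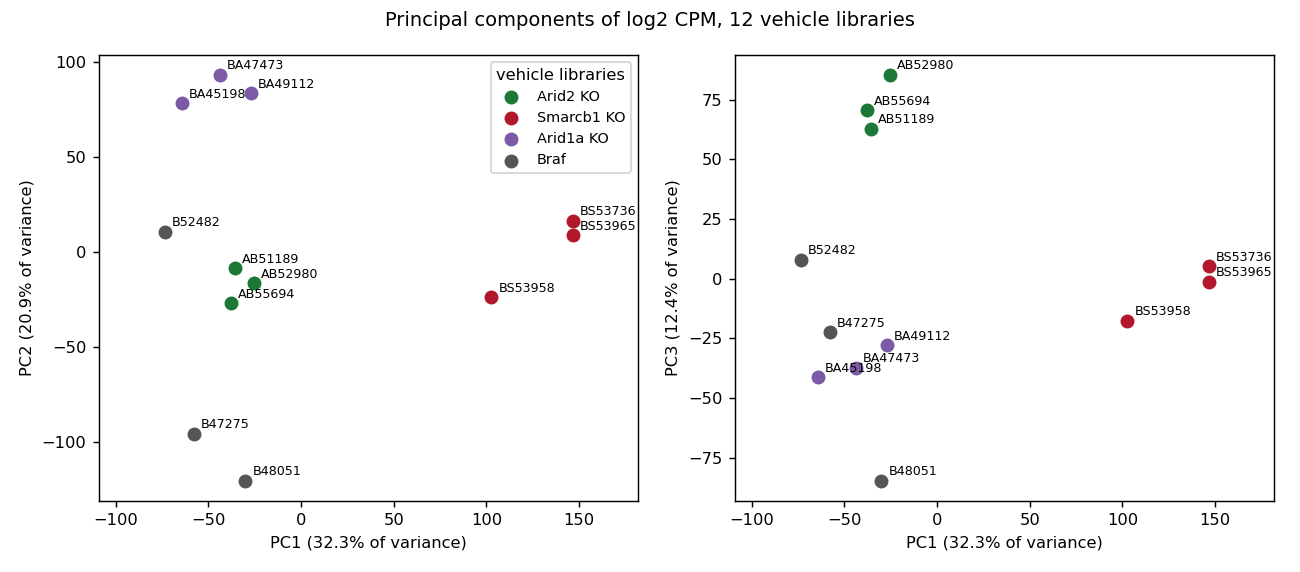
Principal components of log2 CPM in the 12 vehicle libraries. Each point is 1 line, the axes are component scores with their share of variance, and colours give the genotype. Smarcb1 KO lines lie at 102.7 to 146.7 on the first component and Arid2 KO lines at -38 to -25.4, while Arid2 KO lines stand apart on the third at 62.9 to 85.4.

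In the principal component plot, the first component held 32.3% of the variance and put the 3 Smarcb1 KO lines apart from the 9 other lines. Among Smarcb1 KO lines, BS53958 lay closest to the others, at 102.7. Arid2 KO lines were close to each other on all 3 components, and they differed from the other genotypes along the third, which held 12.4% of the variance.

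Between the genotypes, 1291 of 14317 tested genes differed (9.02%), of which 770 (5.38%) were higher and 521 (3.64%) lower in Arid2 KO lines. Calls are edgeR p-values under 0.05 after Benjamini-Hochberg adjustment over all genes tested, and log2 changes are Arid2 KO minus Smarcb1 KO with their standard error (3 lines each). The higher genes differed by more: their median log2 change was 3.41, and 333 of 770 (43.2%) differed by at least 16-fold. With genes at 0 counts set to their bounds, that median was 3.32. The lower genes had a median of -1.58, and 104 of 521 (20%) differed by at least 16-fold. The median over all tested genes was -0.01, a value that the scaling itself holds near 0. In 1280 of the 1291 called genes the 3 Arid2 KO values did not overlap the 3 Smarcb1 KO values, while over all tested genes 17.3% lay apart with Arid2 KO above and 15.7% with Arid2 KO below.

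Several gene lists had a share of called members near or under the 9.02% of all tested genes. These were hedgehog (12.5%), AP-1 (11.1%), growth factor ligands (8%), thyroid differentiation (7.14%), mesenchymal genes and cyclins with CDK inhibitors (6.67% each), polycomb subunits (5.26%), cholesterol synthesis (4.76%) and interferon response (4.55%).

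**Figure D2:**
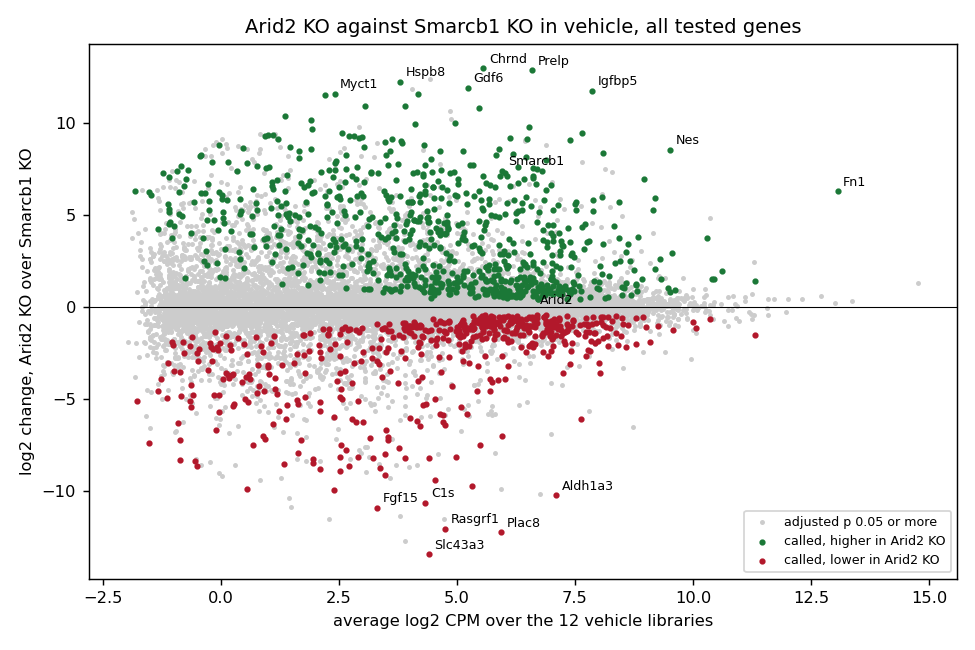
Log2 change of Arid2 KO over Smarcb1 KO (vertical axis) against the average log2 CPM over the 12 vehicle libraries (horizontal axis) for each tested gene. Called genes are coloured by direction (770 higher, 521 lower in Arid2 KO) and the genes with the largest changes are labelled.

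The number of calls rested on the lines included. Without line AB51189 there were 676 calls, without AB52980 530, without AB55694 516, without BS53736 729, without BS53958 926 and without BS53965 570. Every one of the 1291 calls kept its sign in all 13 alternative fits that tested it, and 276 genes (185 higher, 91 lower) were called with the same sign in all 13. The kept sign is largely built in, since the fits share libraries and 1280 of the 1291 genes had no overlap between the genotypes. Of 118 called genes taken by the naming rule, 35 were among the 276. They are Atf3, Bdnf, C1s, Col12a1, Cryab, Dusp4, Efna1, Egln3, Ephb6, Fgf15, Fst, Gcnt4, Hk2, Hspb8, Ndrg1, Nes, Nrp1, ORF63, Pparg, Rara, Rarg, Rasgrf1, Runx3, Slc43a3, Slit2, Smarcb1, Srxn1, Tap2, Tcf7, Tead3, Tmem173, Tnr, Tpm1, Wif1 and Wnt7b. Each of the other called genes taken by the rule was not called in at least 1 alternative fit.

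Called genes made up 27.3% of the 11 core subunits tested, Smarcb1 among them, and 22.2% of the 9 canonical BAF subunits, against 9.02% of all tested genes. All 4 PBAF members were tested and none was called: Pbrm1 was at 286, 230 and 247 CPM in Arid2 KO lines, against 250, 198 and 268 CPM in Smarcb1 KO lines, and Brd7 and Phf10 had log2 changes of -0.05 and 0.51. Among 11 core subunits, Smarca4, an ATPase, was lower in Arid2 KO than in Smarcb1 KO lines. It was at 327, 332 and 346 CPM in Arid2 KO lines, against 494, 527 and 492 CPM in Smarcb1 KO lines (log2 change -0.59 ± 0.13, adjusted p = 0.0261), and the lines did not overlap. Actl6a, an actin-like subunit, was at 48.5, 41 and 43.2 CPM in Arid2 KO lines, against 74.1, 74.9 and 82.3 CPM in Smarcb1 KO lines (log2 change -0.8 ± 0.17, adjusted p = 0.0213). The remaining core members Smarce1, Smarcc1, Smarcc2, Smarcd1, Smarcd2, Smarcd3, Smarca2 and Actb were not called, with log2 changes between -0.41 and 0.93. In canonical BAF, Arid1a was at 168, 137 and 139 CPM in Arid2 KO lines, against 342, 230 and 280 CPM in Smarcb1 KO lines (log2 change -0.94 ± 0.18, adjusted p = 0.0154). Dpf2 was the other of 2 called members of 9, also lower (log2 change -0.51 ± 0.13, adjusted p = 0.044). These 4 calls were each lost without at least 1 line: without AB52980, for example, the adjusted p was 0.0848 for Smarca4, 0.0756 for Actl6a, 0.0574 for Arid1a and 0.103 for Dpf2. Braf lines averaged 296 CPM of Smarca4, 42.6 CPM of Actl6a and 132 CPM of Arid1a. In each of these genes the Smarcb1 KO libraries lay above all 9 other vehicle libraries, and the Arid2 KO libraries did not stand apart. Dpf2 had neither genotype beyond all the others. Of the ncBAF list, Gltscr1 (log2 change -0.52 ± 0.22, adjusted p = 0.151) and Brd9 (log2 change -0.05 ± 0.16, adjusted p = 0.862) were not called. Among 19 polycomb subunits, which act against SWI/SNF at many genes, only E130012A19Rik, the gene now named Epop, was called (log2 change -1.62 ± 0.37, adjusted p = 0.0293).

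The largest differences ran both ways, between genes close to silent in one genotype and expressed in the other. Those close to silent in Smarcb1 KO lines include Cxcl12, a chemokine that attracts Cxcr4-bearing cells, and Hspb8, a small heat shock protein that works with Bag3. On the opposite side, Wif1, a secreted Wnt antagonist, and Tnr, an extracellular matrix glycoprotein best known in brain, were close to silent in Arid2 KO lines. Their promoters are shown because these 4 genes had the smallest adjusted p among the 15 largest changes each way that had exactly 1 RefSeq promoter. Each line gives the 250 bases before the start site in RefSeq (GRCm38.p6), 5′ to 3′ on the gene's strand, and capitals mark GC boxes (GGGCGG on either strand). The windows are chr6:117168285-117168534 (plus strand) for Cxcl12, chr5:116422865-116423114 (minus strand) for Hspb8, chr10:121033754-121034003 (plus strand) for Wif1 and chr1:159523519-159523768 (plus strand) for Tnr.
Cxcl12: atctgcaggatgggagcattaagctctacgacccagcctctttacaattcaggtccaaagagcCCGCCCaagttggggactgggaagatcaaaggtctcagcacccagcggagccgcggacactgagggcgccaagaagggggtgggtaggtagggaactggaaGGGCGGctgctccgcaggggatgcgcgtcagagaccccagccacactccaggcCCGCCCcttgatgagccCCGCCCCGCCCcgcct
Hspb8: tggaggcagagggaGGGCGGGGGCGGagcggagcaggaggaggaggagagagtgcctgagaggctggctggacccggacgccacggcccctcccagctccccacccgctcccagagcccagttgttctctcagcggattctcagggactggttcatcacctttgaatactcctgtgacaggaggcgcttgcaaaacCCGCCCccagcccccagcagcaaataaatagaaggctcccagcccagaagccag
Wif1: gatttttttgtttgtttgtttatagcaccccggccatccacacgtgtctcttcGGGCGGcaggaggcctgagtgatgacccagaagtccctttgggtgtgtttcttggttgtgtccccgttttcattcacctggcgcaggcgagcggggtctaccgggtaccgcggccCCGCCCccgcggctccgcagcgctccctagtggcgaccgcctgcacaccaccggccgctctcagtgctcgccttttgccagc
Tnr: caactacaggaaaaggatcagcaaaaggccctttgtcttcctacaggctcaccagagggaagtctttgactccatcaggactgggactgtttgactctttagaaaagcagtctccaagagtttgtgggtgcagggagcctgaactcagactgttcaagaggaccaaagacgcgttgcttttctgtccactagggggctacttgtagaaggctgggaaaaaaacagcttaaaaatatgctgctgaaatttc

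The Cxcl12 window held 5 GC boxes, the Hspb8 window 3, the Wif1 window 2 and the Tnr window 0. TGANTCA (the AP-1 site), GGAATG (the TEAD site) and CCAAT were searched on both strands as well and had no match in these 4 windows. Over promoters of the same length, a GC box was found in 55.7% of those of genes higher in Arid2 KO lines and in 60.8% of those of genes lower there, against 57% for all tested genes. TGANTCA was found in 7.2% of promoters of higher genes and in 4.98% of those of lower genes, against 4.74% for all tested genes. For GGAATG the shares were 12.6% for higher genes and 9.52% for lower genes, against 10.9% for all tested genes, and for CCAAT they were 32.4% for higher genes and 39.4% for lower genes, against 35% for all tested genes. These shares are descriptions of letters in a window and were not tested.

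Cxcl12 was at 25.1, 82.2 and 185 CPM in Arid2 KO lines, against 0.0934, 0.0487 and 0.128 CPM in Smarcb1 KO lines (log2 change 9.97 ± 1.94, adjusted p = 0.0165). Hspb8 was at 47.3, 8.01 and 28.3 CPM in Arid2 KO lines and had 0 counts in the 3 Smarcb1 KO lines. Against a floor of 3 counts over the Smarcb1 KO group, Hspb8 was at least 602-fold higher in Arid2 KO lines, or 386-fold without AB51189 (edgeR adjusted p = 0.0169). Col12a1, a collagen that binds to fibril surfaces, was at 496, 483 and 789 CPM in Arid2 KO lines, against 0.327, 1.41 and 0.765 CPM in Smarcb1 KO lines (log2 change 9.46 ± 1.06, adjusted p = 0.00216). Gcnt4, an enzyme of mucin-type glycan branching, was at 86.9, 155 and 132 CPM in Arid2 KO lines, against 0.14, 0.195 and 0.085 CPM in Smarcb1 KO lines (log2 change 9.76 ± 1.54, adjusted p = 0.00773). In each of these 4 genes the lowest Arid2 KO line was far above the highest Smarcb1 KO line.

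Runx3, a Runt-domain transcription factor, was at 75.6, 14.4 and 17.3 CPM in Arid2 KO lines, against 0, 0.0974 and 0 CPM in Smarcb1 KO lines, where the group held 2 counts. Its ratio of depth-scaled counts was 1170 (95% counting interval 323 to 9660), an interval that covers counting error only. Gdf6, a BMP-type ligand, was at 126, 56.3 and 58.9 CPM in Arid2 KO lines, against 0, 0.0487 and 0 CPM in Smarcb1 KO lines, a ratio of 5270 (95% counting interval 945 to 208000). Prelp, a leucine-rich matrix proteoglycan, was at 71.3, 86.5 and 650 CPM in Arid2 KO lines, against 0.0467, 0 and 0.0425 CPM in Smarcb1 KO lines, a ratio of 8530 (95% counting interval 2360 to 70500). Capn6, a calpain-family protein that stabilises microtubules, was at 20.5, 23.3 and 401 CPM in Arid2 KO lines, against 0.187, 0.0487 and 0 CPM in Smarcb1 KO lines (log2 change 10.81 ± 2.41, adjusted p = 0.0262). Both Prelp and Capn6 were highest in AB55694. Without AB55694 the ratio of Prelp was 2590 and the log2 change of Capn6 8.03 (adjusted p = 0.0596), and without AB51189 the ratio of Runx3 was 516. Of genes with 0 counts in all Smarcb1 KO lines, Myct1 was at 45, 7 and 0.87 CPM in Arid2 KO lines, at least 387-fold higher, or 88.8-fold without AB51189 (adjusted p = 0.0497, or 0.0898 without that line). Camk1g, a calmodulin-dependent kinase, was at 0.48, 24.4 and 8.56 CPM in Arid2 KO lines, at least 248-fold higher, or 96.5-fold without AB52980 (adjusted p = 0.03, or 0.064 without that line). The lower bound was 374-fold for ORF63 and 246-fold for Gm4955, an Ifi200-family gene now named Ifi206, whose reads may be shared with its relatives.

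In some of the 15 largest changes a single Arid2 KO line carried most of the signal. Chrnd, the delta subunit of the muscle acetylcholine receptor, was at 2.92, 490 and 12.3 CPM in Arid2 KO lines, against 0, 0.0487 and 0 CPM in Smarcb1 KO lines, a ratio of 11500 (95% counting interval 2060 to 453000) with an adjusted p of 0.0291. Igfbp5, a binding protein for insulin-like growth factors, was at 4.37, 1960 and 10.8 CPM in Arid2 KO lines, against 0.0934, 0.438 and 0.0425 CPM in Smarcb1 KO lines (log2 change 11.74 ± 2.64, adjusted p = 0.027). Line AB52980 was the high one for both. Without it the ratio of Chrnd was 491 (adjusted p = 0.0497), and the log2 change of Igfbp5 was 5.31 (adjusted p = 0.028). Skeletal muscle markers moved with that line too: the 9 markers summed to 1.48 to 256 CPM in Arid2 KO lines, with the top value in AB52980, against 1.32 to 4.58 CPM in Smarcb1 KO lines. Acta1, skeletal muscle actin, had 2258 counts in AB52980 and at most 7 counts in each of the 5 other lines. The part of these markers in the 2 results was not tested, and in bulk RNA fewer cells of a type and less RNA per cell cannot be told apart. Igfbp2, another binding protein of the family, was at 0.175, 22.7 and 169 CPM in Arid2 KO lines, against 0, 0 and 0.0425 CPM in Smarcb1 KO lines, and was highest in AB55694 (ratio 4040 (95% counting interval 724 to 159000), adjusted p = 0.0354, or 763 and 0.0813 without AB55694).

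**Figure D3:**
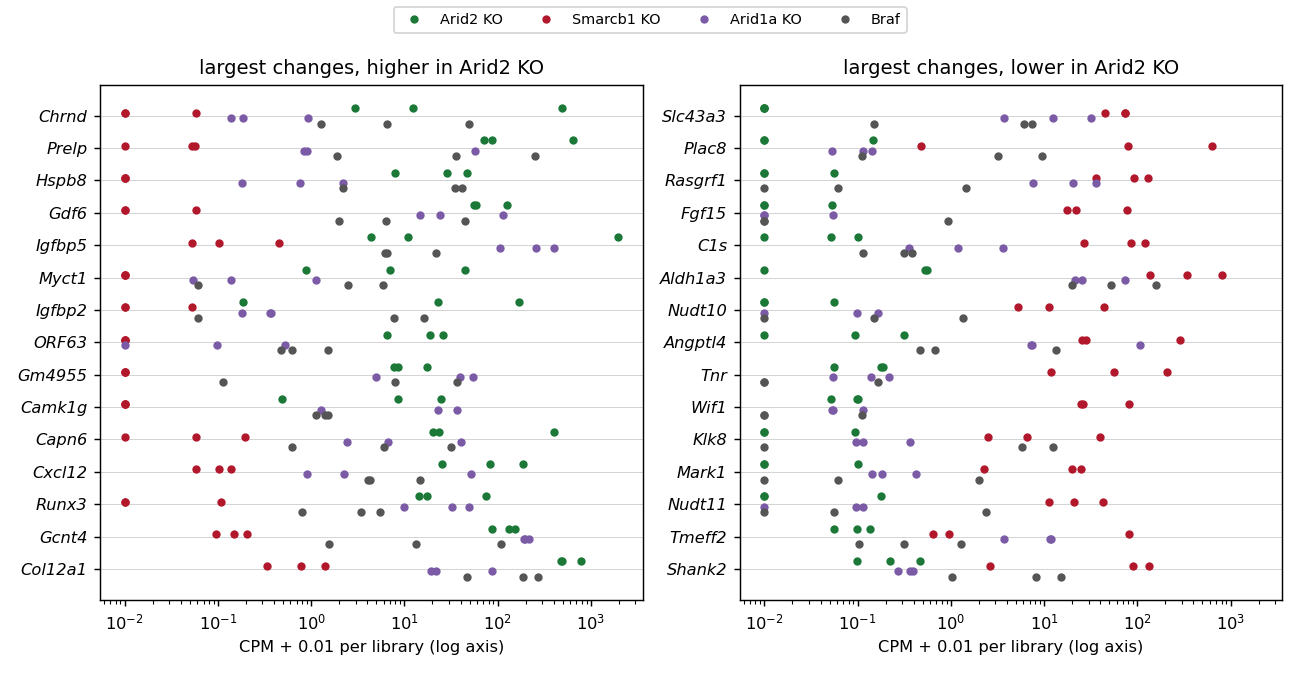
CPM of the 15 largest called changes in each direction, with 0.01 added to each value, on a log axis. Each point is 1 vehicle library, coloured by genotype. In the left panel Smarcb1 KO points sit near 0.01 to 1 CPM, and in the right panel Arid2 KO points do.

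Among the 15 largest changes the other way, several genes were expressed in all 3 Smarcb1 KO lines and nearly unread in Arid2 KO lines. Slc43a3, a transporter of purine bases, had 0 counts in the 3 Arid2 KO lines, against 45.2, 73.8 and 73.3 CPM in Smarcb1 KO lines. It was at least 1470-fold lower in Arid2 KO lines, against a floor of 3 counts over that group (adjusted p = 0.0126). Wif1 was at 0.0873, 0.0419 and 0.0915 CPM in Arid2 KO lines, against 80.9, 26.2 and 24.8 CPM in Smarcb1 KO lines (log2 change -9.12 ± 0.94, adjusted p = 0.00156). Tnr was at 0.175, 0.168 and 0.0458 CPM in Arid2 KO lines, against 209, 11.8 and 56.8 CPM in Smarcb1 KO lines (log2 change -9.41 ± 1.32, adjusted p = 0.00499). Among Smarcb1 KO lines, Tnr was highest in BS53736 and lowest in BS53958.

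Rasgrf1, an exchange factor that activates Ras, was at 0, 0 and 0.0458 CPM in Arid2 KO lines, against 91.2, 129 and 36 CPM in Smarcb1 KO lines. The ratio of Smarcb1 KO to Arid2 KO depth-scaled counts was 5710 (95% counting interval 1020 to 226000). Fgf15, an endocrine FGF of the gut, was at 0.0437, 0 and 0 CPM in Arid2 KO lines, against 17.8, 22.1 and 77.1 CPM in Smarcb1 KO lines, and the same ratio was 2780 (95% counting interval 498 to 110000), or 1370 without BS53965. C1s, a complement protease with a close copy in the mouse genome, was at 0, 0.0419 and 0.0915 CPM in Arid2 KO lines, against 86, 121 and 27 CPM in Smarcb1 KO lines, with the ratio at 1730 (95% counting interval 592 to 8400). Aldh1a3, an enzyme that makes retinoic acid, was at 0.524, 0 and 0.549 CPM in Arid2 KO lines, against 138, 812 and 340 CPM in Smarcb1 KO lines (log2 change -10.22 ± 1.44, adjusted p = 0.00499). Angptl4, a secreted inhibitor of lipoprotein lipase, was at 0.306, 0.0838 and 0 CPM in Arid2 KO lines, against 28.3, 288 and 25.4 CPM in Smarcb1 KO lines (log2 change -9.71 ± 2.3, adjusted p = 0.0316), and BS53958 was the high line.

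Shank2, a synaptic scaffold, was at 0.0873, 0.21 and 0.458 CPM in Arid2 KO lines, against 2.62, 89.4 and 134 CPM in Smarcb1 KO lines (log2 change -8.2 ± 1.56, adjusted p = 0.0153). Plac8 was at 0, 0 and 0.137 CPM in Arid2 KO lines, against 640, 80.3 and 0.468 CPM in Smarcb1 KO lines, with BS53736 far above BS53965. Without BS53736 its adjusted p was 0.0571. Tmeff2, a membrane protein with follistatin domains, was at 0.0873, 0.126 and 0.0458 CPM in Arid2 KO lines, against 0.934, 0.633 and 80.8 CPM in Smarcb1 KO lines, so that BS53965 carried the difference. Without BS53965 its log2 change was -3.09 (adjusted p = 0.112). The protease Klk8 was at 0, 0.0838 and 0 CPM in Arid2 KO lines, against 2.48, 39.9 and 6.55 CPM in Smarcb1 KO lines, a ratio of Smarcb1 KO to Arid2 KO counts of 538 (95% counting interval 149 to 4450), or 158 without BS53958, its high line (adjusted p = 0.0377, or 0.076 without that line). The kinase Mark1 was at 0, 0 and 0.0915 CPM in Arid2 KO lines, against 20, 2.24 and 24.8 CPM in Smarcb1 KO lines, a ratio of 554 (95% counting interval 153 to 4580), and BS53958 was its low line. Of the 6 fits that leave out 1 line, 1 called Klk8 and 1 called Mark1. Nudt10 and Nudt11 are near-identical copies, so the split of reads between them is uncertain, and together they had few reads in Arid2 KO lines (at most 0.168 CPM for either gene) against 5.23 to 43.6 CPM in Smarcb1 KO lines.

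A stricter view counts genes that were on in every line of one genotype (at least 10 CPM) and off in every line of the other (under 0.5 CPM). That held for 18 genes (0.126% of those tested) on in Arid2 KO lines and 12 genes (0.0838%) on in Smarcb1 KO lines, with 17 and 11 of them called. Beside genes named above, and chosen after their values were seen, they include the transcription factors Irf8 and Irx1 on the Arid2 KO side. Irf8 was at 26, 26.2 and 15 CPM in Arid2 KO lines, against 0.14, 0.292 and 0 CPM in Smarcb1 KO lines. On the Smarcb1 KO side they include the sulfotransferase Chst10, at 0, 0.126 and 0.137 CPM in Arid2 KO lines, against 24.4, 10.8 and 25.9 CPM in Smarcb1 KO lines.

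Matrix genes were mostly higher in Arid2 KO lines where they differed. Of 23 collagens tested, 4 were called higher and 1 lower (21.7%, against 9.02% of all tested genes), with a median log2 change of 2.79 against -0.01 over all tested genes. Col16a1, a fibril-associated collagen, was at 109, 33.9 and 63.3 CPM in Arid2 KO lines, against 0.0467, 0.584 and 0.0425 CPM in Smarcb1 KO lines (log2 change 8.26 ± 1.8, adjusted p = 0.0245). Col6a3, a chain of the microfibrillar collagen VI, was low in Arid2 KO lines, at 1, 1.26 and 1.37 CPM, and had 0 counts in Smarcb1 KO lines (at least 26.4-fold higher). Col17a1, a hemidesmosome collagen, went the other way, at 0.175, 0.21 and 0.366 CPM in Arid2 KO lines, against 1.17, 0.877 and 1.62 CPM in Smarcb1 KO lines (log2 change -2.26 ± 0.61, adjusted p = 0.048). With each line left out in turn, 1 to 2 collagens were called higher and 0 lower. Summed over the list, collagens overlapped between the genotypes. The sums were 3740, 2230 and 5010 CPM in Arid2 KO lines, against 1830, 562 and 4990 CPM in Smarcb1 KO lines.

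Of 29 matrix glycoproteins and proteoglycans tested, 2 were called higher and 1 lower (10.3%, close to the 9.02% of all tested genes), with a median log2 change of 1.75 (1.83 at bounds). Fibronectin (Fn1), a major adhesive matrix protein, was at 14000, 7240 and 7830 CPM in Arid2 KO lines, against 4.06, 364 and 3.53 CPM in Smarcb1 KO lines (log2 change 6.29 ± 1.68, adjusted p = 0.0465). Lama5, a laminin chain of basement membranes, was at 908, 723 and 843 CPM in Arid2 KO lines, against 2.34, 36.4 and 2 CPM in Smarcb1 KO lines (log2 change 5.93 ± 1.14, adjusted p = 0.0158). In both genes BS53958 stood above the other Smarcb1 KO lines while staying under every Arid2 KO line. Without BS53958 the log2 change was 11.32 for Fn1 (adjusted p = 0.000344) and 8.57 for Lama5 (adjusted p = 0.000402), and Fn1 was not called when any of the 5 other lines was left out (adjusted p 0.0748 to 0.0881). Fbln1, an elastic fibre protein that is also among the fibroblast markers, was at 5.37, 3.19 and 1.6 CPM in Arid2 KO lines, against 23.5, 23.8 and 39.8 CPM in Smarcb1 KO lines (log2 change -3.1 ± 0.81, adjusted p = 0.0432). The 11 fibroblast markers summed to 22.1 to 38.1 CPM in Arid2 KO lines, against 29.9 to 699 CPM in Smarcb1 KO lines. Most of that was Pdgfra, with 2507 counts in BS53958 and 15458 in BS53965, and its part in the matrix results was not tested. Of the 9 fibroblast markers tested, 6 had positive and 3 negative log2 changes (median 1.59). Col3a1, for example, had 1204 counts over Arid2 KO lines against 48 over Smarcb1 KO lines. Several of the others had few counts in both genotypes, so their signs say little. Dpt had 4 counts over Arid2 KO lines against 1 over Smarcb1 KO lines, Lum and Pi16 12 against 1 each, and Dcn 13 against 13.

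Of 16 integrins tested, 2 were called (12.5%, against 9.02% of all tested genes), both higher. Itga7, a laminin receptor, was at 136, 352 and 39 CPM in Arid2 KO lines, against 0.327, 4.09 and 0.935 CPM in Smarcb1 KO lines (log2 change 6.62 ± 1.49, adjusted p = 0.0271). Itgb8, which helps to activate latent TGF-beta, had a log2 change of 3.71 (adjusted p = 0.0347) and was the other called integrin. Among 25 proteases and inhibitors, 4 were called higher and 1 lower (median log2 change 2.1, and 20% called against 9.02% of all tested genes). With each line left out in turn, 0 to 2 of them were called higher and 0 lower. The sums of this list overlapped, at 3280, 3110 and 4620 CPM in Arid2 KO lines, against 3420, 1490 and 7370 CPM in Smarcb1 KO lines. Adam19, a membrane metalloprotease, was at 107, 46.2 and 8.88 CPM in Arid2 KO lines, against 0.187, 0.0487 and 0.0425 CPM in Smarcb1 KO lines (log2 change 9.11 ± 2.13, adjusted p = 0.0308). The collagen cross-linking enzyme Loxl1 and the stromelysin Mmp11 were higher as well (log2 changes 7.71 and 3.94), though AB52980 had only 1.55 CPM of Loxl1 and 1.13 CPM of Mmp11, which is under the 2.3 CPM of BS53965. Plaur, the urokinase receptor, was lower, at 100, 113 and 34.4 CPM in Arid2 KO lines, against 207, 366 and 430 CPM in Smarcb1 KO lines (log2 change -2.02 ± 0.54, adjusted p = 0.0465).

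**Figure D4:**
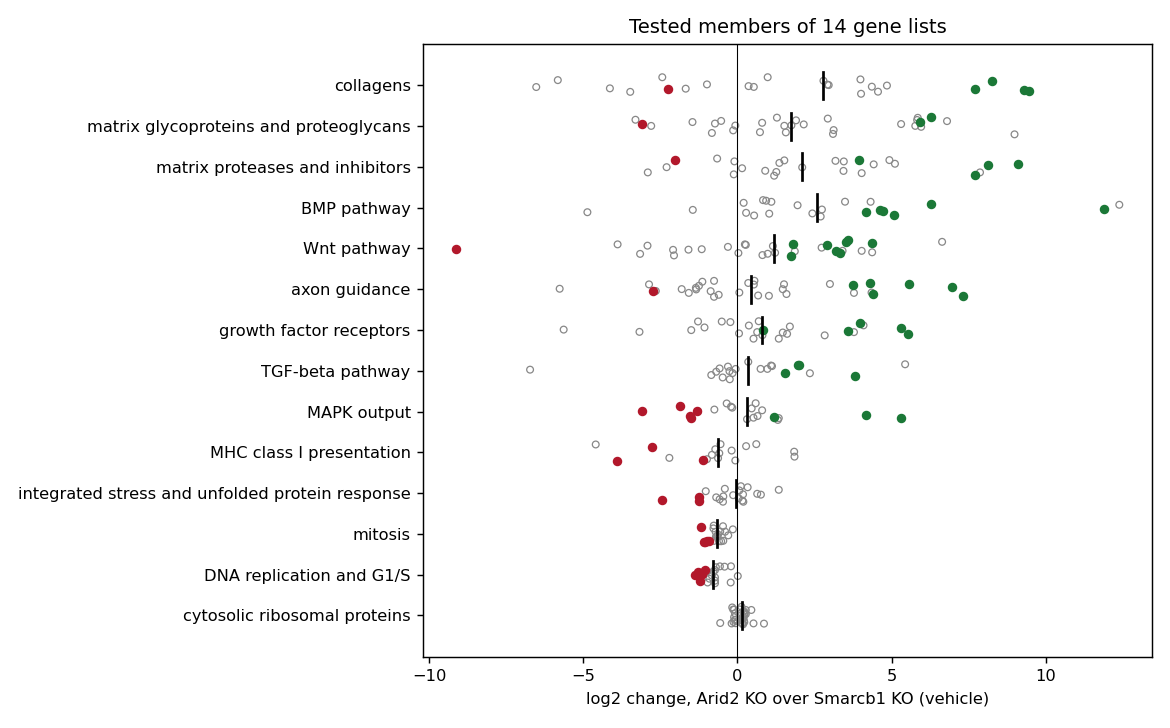
Log2 change of Arid2 KO over Smarcb1 KO for tested members of 14 gene lists. Each circle is a gene, filled where called (green higher, red lower in Arid2 KO) and open where not called, and the black bar is the median of the list, such as 2.79 for collagens and 0.13 for ribosomal proteins.

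Lists of secreted signals and their receptors differed in their share of calls. Of 22 BMP pathway genes tested, 6 were called higher and 0 lower (27.3%, against 9.02% of all tested genes), with a median log2 change of 2.57 (2.19 at bounds). With each line left out in turn, 3 to 6 genes of the list were called higher. Besides the ligand Gdf6, the antagonist Nog was at 6.24, 12.1 and 16.3 CPM in Arid2 KO lines, against 0, 0.39 and 0.0425 CPM in Smarcb1 KO lines (log2 change 6.29 ± 1.21, adjusted p = 0.0156). Fst, an antagonist of activins, was at 19, 92.7 and 141 CPM in Arid2 KO lines, against 2.62, 7.16 and 4.29 CPM in Smarcb1 KO lines (log2 change 4.17 ± 0.71, adjusted p = 0.0103). Id4, a target of BMP signalling that blocks helix-loop-helix factors, was at 4.41, 9.52 and 27.1 CPM in Arid2 KO lines, against 0.467, 0.828 and 0.255 CPM in Smarcb1 KO lines (log2 change 4.72 ± 0.74, adjusted p = 0.00743).

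Of 30 Wnt pathway genes tested, 8 were called higher and 1 lower (median log2 change 1.18, and 30% called against 9.02% of all tested genes). With each line left out, 4 to 6 genes of the list were called higher. The ligand Wnt7b was at 273, 299 and 201 CPM in Arid2 KO lines, against 1.92, 13.8 and 21.9 CPM in Smarcb1 KO lines (log2 change 4.36 ± 0.83, adjusted p = 0.0156). Fzd4, a Wnt receptor, was at 13.1, 6.25 and 7.46 CPM in Arid2 KO lines, against 1.17, 0.438 and 1.06 CPM in Smarcb1 KO lines (log2 change 3.32 ± 0.54, adjusted p = 0.0086). Tcf7, a transcription factor of the pathway, was at 9.34, 8.55 and 5.45 CPM in Arid2 KO lines, against 0.981, 0.925 and 1.23 CPM in Smarcb1 KO lines (log2 change 2.89 ± 0.38, adjusted p = 0.004). The antagonist Wif1 was the only member called lower. In the hedgehog list, Hhip, a membrane protein that binds hedgehog ligands, was the 1 called gene of 8, at 30.4, 83.4 and 29.4 CPM in Arid2 KO lines, against 0.14, 0.73 and 0.0425 CPM in Smarcb1 KO lines (log2 change 7.3 ± 1.93, adjusted p = 0.0452). No Notch pathway gene of 11 was called by edgeR: Jag2 had a log2 change of 3.95 and Notch1 of -1.04.

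Of 21 TGF-beta pathway genes, 4 were called higher and 0 lower (median log2 change 0.35, and 19% called against 9.02% of all tested genes). The receptor Tgfbr2 was at 323, 255 and 609 CPM in Arid2 KO lines, against 67.6, 118 and 110 CPM in Smarcb1 KO lines (log2 change 2.01 ± 0.45, adjusted p = 0.0277). Ltbp1, which holds latent TGF-beta in the matrix, was at 420, 1130 and 1180 CPM in Arid2 KO lines, against 70.5, 51.9 and 73.9 CPM in Smarcb1 KO lines (log2 change 3.8 ± 0.97, adjusted p = 0.0399). Ltbp3 and the ligand Tgfb3 were also higher (log2 changes 1.53 and 1.97). With each line left out in turn, 0 to 2 genes of the list were called higher. Over all alternative fits the list median lay between -0.14 and 0.79. Of 17 YAP and TEAD genes, 3 were called (17.6%, against 9.02% of all tested genes), all higher. They were Tead3, a DNA-binding partner of YAP (log2 change 1.5 ± 0.25, adjusted p = 0.00956), Cyr61, a secreted matricellular target (log2 change 1.73 ± 0.41, adjusted p = 0.0325), and Nt5e, a cell surface nucleotidase (log2 change 5.2 ± 1.2, adjusted p = 0.0295). Both Igfbp2 and Igfbp5, described above, were the only called members of 10 IGF binding protein genes (20%, against 9.02% of all tested genes), a list whose median log2 change was 4.28.

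Of 25 growth factor receptors, 5 were called higher and 0 lower (median log2 change 0.81, and 20% called against 9.02% of all tested genes). Ephb6, an Eph receptor without kinase activity, was at 137, 204 and 398 CPM in Arid2 KO lines, against 4.53, 5.55 and 5.83 CPM in Smarcb1 KO lines (log2 change 5.54 ± 0.7, adjusted p = 0.00348). Ephb3 and Epha7 had log2 changes of 3.99 and 3.6. Of 25 growth factor ligands, 2 were called, both higher (8%, not above the 9.02% of all tested genes). Bdnf, a neurotrophin, was at 49.8, 42 and 41 CPM in Arid2 KO lines, against 0.374, 2.05 and 0.808 CPM in Smarcb1 KO lines (log2 change 5.36 ± 0.72, adjusted p = 0.004). Fgf2 was the other called ligand, at 1.57, 1.05 and 0.412 CPM in Arid2 KO lines and 1 count over the Smarcb1 KO lines, a ratio of 66.8 (95% counting interval 11.6 to 2680).

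Of 32 axon guidance genes, 6 were called higher and 1 lower (median log2 change 0.44, and 21.9% called against 9.02% of all tested genes). Slit2, a secreted ligand of Robo receptors, was at 275, 362 and 471 CPM in Arid2 KO lines, against 6.45, 12.2 and 4.68 CPM in Smarcb1 KO lines (log2 change 5.57 ± 0.44, adjusted p = 0.000845). Nrp1, a co-receptor of semaphorins and VEGF, was at 320, 316 and 598 CPM in Arid2 KO lines, against 5.56, 17.5 and 34.9 CPM in Smarcb1 KO lines (log2 change 4.41 ± 0.64, adjusted p = 0.0056). Efna1, an ephrin ligand, was higher (log2 change 3.76 ± 0.54, adjusted p = 0.0055), whereas Efna5, another ephrin, was lower (log2 change -2.73 ± 0.68, adjusted p = 0.0366). Of 14 neural and neuroendocrine genes, 1 was called each way (14.3% called, against 9.02% of all tested genes). Nes, the intermediate filament nestin, was at 1840, 2110 and 1950 CPM in Arid2 KO lines, against 2.99, 8.52 and 4.29 CPM in Smarcb1 KO lines (log2 change 8.54 ± 0.91, adjusted p = 0.00179). Syt1, a calcium sensor of vesicle release, was at 0.0873, 0.126 and 2.61 CPM in Arid2 KO lines, against 130, 33.1 and 23.1 CPM in Smarcb1 KO lines (log2 change -6.04 ± 1.25, adjusted p = 0.0208).

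Of 25 Hox genes tested, which pattern the body axis, edgeR called 3 (12%, against 9.02% of all tested genes), all higher in Arid2 KO lines (median log2 change 1.45), and all lie in the HoxA cluster. Hoxa3 was at 5.85, 8.97 and 28.7 CPM in Arid2 KO lines, against 0.234, 0.0974 and 0.34 CPM in Smarcb1 KO lines (log2 change 5.97 ± 1.17, adjusted p = 0.0169). Hoxa2 and Hoxa4 had log2 changes of 5.17 and 4. With each line left out, 0 to 1 Hox genes were called higher.

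Retinoic acid genes were called in both directions, 2 higher and 2 lower of 15 (26.7%, against 9.02% of all tested genes). The receptor gene Rara was higher, at 52.3, 46.9 and 40.6 CPM in Arid2 KO lines, against 19.2, 20.9 and 21.4 CPM in Smarcb1 KO lines (log2 change 1.18 ± 0.18, adjusted p = 0.00741). The receptor gene Rarg was lower, at 61.6, 51.4 and 56.3 CPM in Arid2 KO lines, against 168, 129 and 145 CPM in Smarcb1 KO lines (log2 change -1.38 ± 0.18, adjusted p = 0.004). The enzymes divided as well. Rdh10, which makes retinaldehyde from retinol, was at 90.8, 76 and 187 CPM in Arid2 KO lines, against 18.7, 13.5 and 14.5 CPM in Smarcb1 KO lines (log2 change 2.92 ± 0.58, adjusted p = 0.0172), while Aldh1a3, which acts on retinaldehyde, was lower as given above.

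MAPK output genes, which report ERK activity and feed back on it, did not move together: of 21 tested, 3 were called higher and 5 lower (median log2 change 0.31, and 38.1% called against 9.02% of all tested genes). Dusp4, a nuclear ERK phosphatase, was at 236, 111 and 102 CPM in Arid2 KO lines, against 4.72, 15.6 and 4.59 CPM in Smarcb1 KO lines (log2 change 4.17 ± 0.6, adjusted p = 0.0055). Etv4, an Ets factor, was at 129, 96 and 104 CPM in Arid2 KO lines, against 45.4, 36.7 and 61.5 CPM in Smarcb1 KO lines (log2 change 1.19 ± 0.27, adjusted p = 0.0284). Epha4, an Eph receptor on this list, was at 9.08, 43.8 and 26.5 CPM in Arid2 KO lines, against 0, 1.85 and 0.17 CPM in Smarcb1 KO lines (log2 change 5.3 ± 1.33, adjusted p = 0.0374). Spry4, a feedback inhibitor of receptor signalling, was at 70.5, 30.3 and 37.7 CPM in Arid2 KO lines, against 483, 221 and 489 CPM in Smarcb1 KO lines (log2 change -3.11 ± 0.67, adjusted p = 0.0241). Spred2, a related inhibitor of Ras-Raf signalling, was lower too (log2 change -1.32 ± 0.29, adjusted p = 0.025). Myc was at 75.7, 84.6 and 48.9 CPM in Arid2 KO lines, against 181, 183 and 247 CPM in Smarcb1 KO lines (log2 change -1.55 ± 0.38, adjusted p = 0.036). With each line left out in turn, 1 to 3 members were called higher and 0 to 3 lower. The 5 lower calls were lost without AB52980, AB55694 or BS53965 (0 each), and 1 was left without AB51189 or BS53736 and 3 without BS53958. Of 9 AP-1 genes, Atf3, a stress-induced member, was called, at 6.72, 13.7 and 5.08 CPM in Arid2 KO lines, against 75.7, 43.9 and 33.3 CPM in Smarcb1 KO lines (log2 change -2.58 ± 0.48, adjusted p = 0.0139).

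Cell cycle genes were lower in Arid2 KO lines where called. Of 22 DNA replication and G1/S genes, 0 were called higher and 7 lower (median log2 change -0.81, and 31.8% called against 9.02% of all tested genes). Pcna, the replication clamp, was at 182, 101 and 112 CPM in Arid2 KO lines, against 252, 310 and 260 CPM in Smarcb1 KO lines (log2 change -1.06 ± 0.24, adjusted p = 0.0297). The thymidylate synthase Tyms (log2 change -1.15 ± 0.27, adjusted p = 0.0313) and the licensing factor Cdt1 (log2 change -1.27 ± 0.31, adjusted p = 0.0349) were lower as well. Of 21 mitosis genes (23.8% called, against 9.02% of all tested genes), 0 were called higher and 5 lower (median log2 change -0.66). They include Nusap1, a spindle protein (log2 change -1.09 ± 0.26, adjusted p = 0.0311), Bub1b, a checkpoint kinase (log2 change -0.98 ± 0.24, adjusted p = 0.0349), the mitotic kinase Cdk1 (log2 change -1.06 ± 0.28, adjusted p = 0.0443) and the topoisomerase Top2a (log2 change -0.93 ± 0.25, adjusted p = 0.0463). Of 15 cyclins, CDKs and inhibitors, Cdk4 was the 1 called, at 294, 274 and 268 CPM in Arid2 KO lines, against 577, 535 and 542 CPM in Smarcb1 KO lines (log2 change -0.99 ± 0.22, adjusted p = 0.0279).

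The sign held across both cell cycle lists while the calls did not. In 21 of 22 replication genes and 21 of 21 mitosis genes the log2 change was negative, and genes of the cycle are not independent of each other. In the fit of the 6 compared libraries, 2 replication and 0 mitosis genes were called, and 1 and 0 when all 24 tumor line libraries were fitted. Leaving out AB51189 gave 9 and 4 calls, leaving out BS53736 2 and 1, leaving out BS53965 0 and 1, and leaving out AB52980, AB55694 or BS53958 gave 0 and 0. Within Arid2 KO lines AB51189 was the highest and AB52980 the lowest in Pcna, Cdk1 and Top2a.

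**Figure D5:**
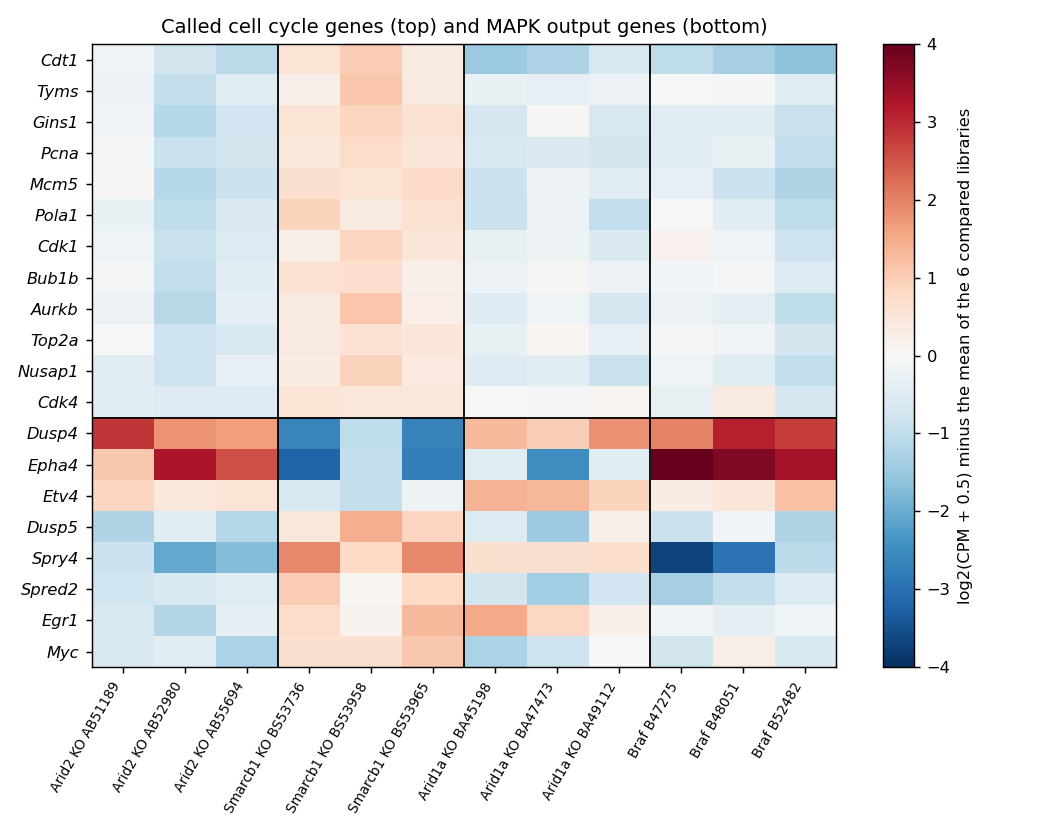
Log2(CPM + 0.5) of most called cell cycle genes (upper block) and MAPK output genes (lower block) in the 12 vehicle libraries, minus the mean of the 6 compared libraries; red is above and blue below that mean. Cell cycle genes are lower in Arid2 KO than in Smarcb1 KO lines by about the same step, and MAPK genes change in both directions. Among Arid2 KO lines, AB51189 is closest to the mean in most cell cycle genes, though not in Nusap1.

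Stress genes went in both directions. Of 16 heat shock and oxidative stress genes, 3 were called higher and 4 lower (43.8%, against 9.02% of all tested genes). The small heat shock proteins Hspb8, Cryab and Hspb1 were the higher ones: Cryab was at 70.1, 174 and 165 CPM in Arid2 KO lines, against 2.29, 5.06 and 4.17 CPM in Smarcb1 KO lines (log2 change 5.15 ± 0.62, adjusted p = 0.00282), and Hspb1 had a log2 change of 4.88. Srxn1, which repairs oxidised peroxiredoxins and is an Nrf2 target, was at 156, 188 and 178 CPM in Arid2 KO lines, against 626, 917 and 666 CPM in Smarcb1 KO lines (log2 change -2.08 ± 0.3, adjusted p = 0.0056). Txnrd1, a thioredoxin reductase and also an Nrf2 target, was at 428, 353 and 200 CPM in Arid2 KO lines, against 1590, 602 and 1420 CPM in Smarcb1 KO lines (log2 change -1.88 ± 0.4, adjusted p = 0.0235). The chaperone Hsph1 was lower (log2 change -1.38 ± 0.35, adjusted p = 0.0396). Of 20 genes of the integrated stress and unfolded protein response, 0 were called higher and 3 lower (15%, against 9.02% of all tested genes). Ppp1r15a, which restores translation after stress, was at 25, 28.9 and 18.6 CPM in Arid2 KO lines, against 56.4, 56.2 and 58.1 CPM in Smarcb1 KO lines (log2 change -1.24 ± 0.21, adjusted p = 0.0101). The transcription factor Ddit3 and the glutathione-degrading enzyme Chac1 had log2 changes of -1.25 and -2.46.

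Of 21 glycolysis and hypoxia genes, 3 were called higher and 0 lower (median log2 change 0.42, and 14.3% called against 9.02% of all tested genes). The same number of higher calls was made with any line left out. Egln3, a prolyl hydroxylase that marks Hif for degradation, was at 67.7, 141 and 14 CPM in Arid2 KO lines, against 0.187, 0.584 and 1.15 CPM in Smarcb1 KO lines (log2 change 6.84 ± 1.06, adjusted p = 0.00738). Ndrg1, a hypoxia-induced gene, was at 205, 150 and 371 CPM in Arid2 KO lines, against 1.49, 5.84 and 0.17 CPM in Smarcb1 KO lines (log2 change 6.6 ± 1.18, adjusted p = 0.0123). Hk2, a hexokinase, had a log2 change of 2.28 (adjusted p = 0.00991). Of 21 cholesterol synthesis genes, Insig1, a sterol sensor, was the 1 called (log2 change 1.37 ± 0.35, adjusted p = 0.0398).

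Immune genes differed in a few members. Of 17 MHC class I presentation genes, 0 were called higher and 3 lower (median log2 change -0.63, and 17.6% called against 9.02% of all tested genes). Tap2, a subunit of the peptide transporter, was at 2.44, 4.4 and 3.89 CPM in Arid2 KO lines, against 24.1, 34.9 and 13.9 CPM in Smarcb1 KO lines (log2 change -2.76 ± 0.5, adjusted p = 0.0123). The immunoproteasome subunit Psmb9 and the proteasome activator Psme2 had log2 changes of -3.9 and -1.11. Of 22 interferon response genes, Tmem173, which encodes the DNA-sensing adaptor STING, was the 1 called, at 111, 133 and 91.1 CPM in Arid2 KO lines, against 0, 1.07 and 0 CPM in Smarcb1 KO lines (log2 change 8.31 ± 1.29, adjusted p = 0.00717). Among 16 chemokines and cytokines, 18.8% were called, against 9.02% of all tested genes. Cxcl12 and the interleukin-1 antagonist Il1rn (log2 change 5.25 ± 1.42, adjusted p = 0.0477) were higher. Cxcl2, a neutrophil-attracting chemokine, was lower, at 0.611, 0.0419 and 0.549 CPM in Arid2 KO lines, against 41.6, 5.55 and 79.3 CPM in Smarcb1 KO lines (log2 change -6.7 ± 1.39, adjusted p = 0.0208).

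Thyroid differentiation genes mostly had positive log2 changes, 13 of 14 tested (median 2.65), yet only Glis3 was called. Glis3, a zinc finger factor needed for thyroid hormone synthesis, was at 10.3, 12 and 29.4 CPM in Arid2 KO lines, against 0.888, 2.05 and 0.17 CPM in Smarcb1 KO lines (log2 change 4.06 ± 0.87, adjusted p = 0.0231). With each line left out, 0 to 2 members of the list were called higher. Tg, the thyroglobulin gene, was at 7.95, 7 and 14.3 CPM in Arid2 KO lines, against 0.374, 1.12 and 0.468 CPM in Smarcb1 KO lines (log2 change 3.89 ± 1.27, adjusted p = 0.0827), so the lines did not overlap but the gene was not called. Pax8 was at 38, 64.1 and 141 CPM in Arid2 KO lines, against 144, 3.46 and 16.7 CPM in Smarcb1 KO lines, and BS53736 was above every Arid2 KO line.

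No epithelial gene of 22 was called by edgeR (median log2 change -1.8, or -1.86 at bounds), and the Smarcb1 KO lines were unlike each other. Cdh1, the adherens junction cadherin, was at 1.31, 8.76 and 1.01 CPM in Arid2 KO lines, against 0.14, 26.4 and 0.085 CPM in Smarcb1 KO lines. The membrane protease St14 had the smallest p of the list, at 0.218, 0.168 and 0.0458 CPM in Arid2 KO lines, against 13.7, 12.8 and 0.128 CPM in Smarcb1 KO lines (log2 change -5.88 ± 1.97, adjusted p = 0.0895), so that BS53736 and BS53958 were high and BS53965 overlapped the Arid2 KO lines. The protease Prss8 was at 0.0873, 0.168 and 0.0915 CPM in Arid2 KO lines, against 0.0467, 7.4 and 1.91 CPM in Smarcb1 KO lines (log2 change -4.68 ± 1.76, adjusted p = 0.12). Without BS53958 the median over the list was 0.65. Of 15 mesenchymal genes, Tcf4, a helix-loop-helix factor, was the 1 called (log2 change 2.97 ± 0.64, adjusted p = 0.0238). Among 11 smooth muscle contractile genes, 2 were called higher and 0 lower (18.2%, against 9.02% of all tested genes). Tpm1, a tropomyosin, was at 1950, 1280 and 2170 CPM in Arid2 KO lines, against 136, 126 and 145 CPM in Smarcb1 KO lines (log2 change 3.73 ± 0.47, adjusted p = 0.00344). Mylk, the myosin light chain kinase, was at 17.2, 60.1 and 45.9 CPM in Arid2 KO lines, against 0.234, 0.487 and 0.17 CPM in Smarcb1 KO lines (log2 change 7.1 ± 0.76, adjusted p = 0.00183).

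Markers of other cell types were called in few cases. Pparg, on the adipocyte list and also a nuclear receptor in other cells, was at 14.9, 3.27 and 5.68 CPM in Arid2 KO lines, against 0.0467, 0.243 and 0.213 CPM in Smarcb1 KO lines (log2 change 5.52 ± 0.95, adjusted p = 0.0107). The 7 adipocyte markers summed to 3.56 to 15 CPM in Arid2 KO lines, nearly all of it Pparg, against 0.292 to 0.654 CPM in Smarcb1 KO lines. Lpl, the other tested marker of this list, had 1 count over Arid2 KO lines against 16 over Smarcb1 KO lines. Endothelial markers summed to 17.1 to 34.3 CPM in Arid2 KO lines, against 1.66 to 658 CPM in Smarcb1 KO lines. Cdh5, the endothelial cadherin, had 15309 counts in BS53965 and gave nearly all of that value, while Pecam1 had 129 counts there, and neither was called. Plvap, an endothelial marker too, was at 31.6, 27.5 and 15.2 CPM in Arid2 KO lines, against 0.327, 1.31 and 0.468 CPM in Smarcb1 KO lines (log2 change 5.14 ± 1.65, adjusted p = 0.0792). In the cytosolic ribosomal protein list, 0 of 34 genes were called by edgeR (median log2 change 0.13), with Rps2 at 0.86 and Rps4x at -0.56. Mitochondrially encoded genes had 0 calls of 5, with mt-Cytb at 0.57 and mt-Nd4 at 0.57. Markers of C cells (0 of 3 tested), leukocytes (0 of 1), skeletal muscle (0 of 3) and respiratory or stratified epithelium (0 of 2) and sex-linked genes (0 of 5) had no call either. In the lists without an edgeR call, the genes with an unadjusted p under 0.05 numbered 3 of 22 for epithelial genes, 3 of 11 for the Notch pathway, 2 of 34 for ribosomal proteins, 2 of 5 for mitochondrially encoded genes, 4 of 5 for endothelium, 2 of 3 for skeletal muscle, 1 each for ncBAF and respiratory or stratified epithelium, and 0 for PBAF, C cells, leukocytes and sex-linked genes. Over all tested genes this share was 27.1%. DESeq2 called 5 of 24 epithelial genes, 1 each of the Notch, ribosomal protein, endothelium and skeletal muscle lists, and 0 of the others, against 17% of all genes it tested.

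Setting the compared lines beside the 6 other vehicle lines showed which genotype stood apart. In 939 of 1291 called genes (72.7%, against 13.8% of all tested genes) the 3 Smarcb1 KO libraries lay beyond all 9 others. In 91 called genes (7.05%, against 1.98% of all tested genes) the 3 Arid2 KO libraries did, and 22 genes met both. A call itself requires a gap between these 2 genotypes, so both shares exceed those of all tested genes by construction. Among genes higher in Arid2 KO lines, the 3 Smarcb1 KO libraries lay below all 9 others in 549 of 770 and the 3 Arid2 KO libraries above all 9 in 48. Over all 14317 tested genes these layouts held for 1008 and 152. Among genes lower in Arid2 KO lines, the 3 Smarcb1 KO libraries lay above all 9 others in 390 of 521 and the 3 Arid2 KO libraries below all 9 in 43, against 971 and 131 of all 14317 tested genes. Nes was among the 22: it was at 1840, 2110 and 1950 CPM in Arid2 KO lines, against 2.99, 8.52 and 4.29 CPM in Smarcb1 KO lines, 63.5, 21.8 and 142 CPM in Arid1a KO lines and 743, 409 and 1530 CPM in Braf lines. Wif1 was high only in Smarcb1 KO lines, with 0.103, 0.044 and 0.0428 CPM in Arid1a KO lines and 0, 0 and 0.102 CPM in Braf lines beside the values given above.

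The same 6 lines were also sequenced after 8 days in 300 nM CH5126766 (CKI), which inhibits both RAF and MEK. These libraries share their lines with the vehicle libraries and are no independent replicates, and 2 Smarcb1 KO libraries were shallower. Of the 770 genes higher in Arid2 KO lines in vehicle, 652 (84.7%) had all 3 Arid2 KO libraries above all 3 Smarcb1 KO libraries under CKI, against 19.5% of all tested genes, and 0 were the other way round. Of the 521 lower genes, 265 (50.9%) had Arid2 KO below, against 9.6% of all tested genes, and 2 above. Nes under CKI was at 754, 2250 and 907 CPM in Arid2 KO lines, against 0.518, 8.24 and 1.73 CPM in Smarcb1 KO lines. Spry4 under CKI was at 7.69, 5.52 and 4.52 CPM in Arid2 KO lines, against 201, 170 and 132 CPM in Smarcb1 KO lines. Wif1 under CKI was low in both genotypes and overlapped between them, at 0.221, 1.25 and 0.526 CPM in Arid2 KO lines, against 0.797, 3.26 and 4.32 CPM in Smarcb1 KO lines. Rasgrf1 under CKI was highest in BS53958, at 0.0442, 0 and 0 CPM in Arid2 KO lines, against 2.11, 87.5 and 0.288 CPM in Smarcb1 KO lines. Among the genes taken by the naming rule, 0.288 CPM was the smallest value above 0 in BS53965 under CKI. Low levels in that library are therefore coarse.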

How the data were processed

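The authors deposited raw counts per gene symbol, made from RNA libraries of a TruSeq kit per the labels' protocols. Per the submitters' processing notes, mm9, STAR 2.4, HTSeq 0.6.1 and DESeq2 were used, with no role stated. The sources used here give neither the annotation nor the strand setting, so antisense, overlapping and near-copy genes may share reads.

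Counts were analysed with R 4.3.3 and edgeR 4.0.16. The 12 vehicle libraries of the tumor lines (4 genotypes, 3 lines each) entered 1 fit, since a fit with the inhibitor libraries would count a line more than once. Of 33924 symbols, 14317 passed filterByExpr by group. Libraries were scaled by TMM, and the quasi-likelihood F test had 8 residual degrees of freedom. P-values were adjusted by Benjamini-Hochberg over all genes tested, and calls were made under 0.05. Levels are CPM on TMM-scaled library sizes. Standard errors are approximate, computed as the log2 change over the root of F. A group at 0 was set to a floor of 3 counts over the group, and ratios over 1 to 3 counts have exact 95% intervals, both covering counting error only. P-values measure the spread between lines that the labels name as separate. No 2 of the 6 compared libraries that share a genotype agreed within sampling noise.

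The text names the targeted genes, all PBAF and core members, the 15 largest called changes each way whose libraries did not overlap and whose average log2 CPM reached 2, and up to 4 called members of each other list (50 lists in all, 894 entries, 745 tested; up to 3 each way where both directions were called). Of a list with no call, at most 2 genes are given. Some genes that the rule takes are not reported here. The comparison, members and lists were chosen with earlier results of these data known, so no list is independent support. The fit was tested on simulated counts. Alternatives were RLE factors, DESeq2 1.42.0, other filters, the 6 compared libraries, all 24 tumor line libraries with and without the line as a replicate block (limma 3.58.1), and each line left out. Arid2 KO and Smarcb1 KO lines share no replicate number, so they were not paired.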

Additional observations from a re-analysis of the deposited data

How the results depend on the processing

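edgeR on the 12 vehicle libraries called 1291 genes, 770 higher and 521 lower in Arid2 KO lines. RLE factors gave 1289 calls, and a filter of 1 CPM in 3 libraries gave 1297. DESeq2 called 2838 (1610 higher, 1228 lower), of which 1274 were calls of edgeR. With no filter, 902 were called, 343 of them lower. The 6 compared libraries alone gave 809 (509 higher, 300 lower). All 24 tumor line libraries gave 1600 with no replicate block. With the line as a replicate block (consensus correlation 0.486), 1380 were called, 775 higher and 605 lower, and 896 of the 1291 were among them. Leaving out 1 line at a time gave 516 to 926 calls, 325 to 535 higher and 154 to 391 lower. Without AB52980 the higher share was 70.9% of calls, against 59.6%. Every one of the 1291 calls kept its sign in each alternative that tested it, which is largely built in as given above, and 276 were called in all 13. Of the genes named by the rule, 48 lost the call under the replicate block, 37 in the fit of 6 libraries, 22 with no filter, 14 with all 24 libraries and no block, 5 with DESeq2 and 0 with RLE factors. Each line left out cost 48 to 65 of them. Beyond the construction of the fits (fewer lines or libraries, or other genes tested), the cause was not tested. An unadjusted p under 0.05 was found for 3886 genes (27.1%). At these depths, genes with few counts in both genotypes could not be compared.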

Other observations

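The genes with the smallest p, chosen here after their values were seen, belong to none of the lists but Slit2 and Wif1. Gm13456, to which no role is given here, had the smallest: it was at 11.7, 11.9 and 11.1 CPM in Arid2 KO lines, against 118, 165 and 242 CPM in Smarcb1 KO lines (log2 change -3.92 ± 0.26, adjusted p = 0.000427 from edgeR). Its level was 9.18, 9.29 and 11.9 CPM in Arid1a KO lines and 11.1, 11.6 and 10 CPM in Braf lines, so only the Smarcb1 KO lines stood apart. Nlgn3, a synaptic adhesion protein, had the same layout, at 0.698, 1.05 and 0.641 CPM in Arid2 KO lines, against 40.9, 15.4 and 26 CPM in Smarcb1 KO lines, 0.513, 0.572 and 0.77 CPM in Arid1a KO lines and 0.554, 0.924 and 0.51 CPM in Braf lines. Irs1, the docking protein of the insulin and IGF1 receptors, was at 95, 77.1 and 140 CPM in Arid2 KO lines, against 2.29, 3.12 and 0.723 CPM in Smarcb1 KO lines. The glypican Gpc4, a heparan sulfate proteoglycan of the cell surface, was at 196, 222 and 205 CPM in Arid2 KO lines, against 0.327, 2.14 and 1.19 CPM in Smarcb1 KO lines. Il4ra, the interleukin-4 receptor chain, was at 132, 180 and 171 CPM in Arid2 KO lines, against 2.01, 6.92 and 2.04 CPM in Smarcb1 KO lines. Arhgef7, an exchange factor for Rac and Cdc42, was at 103, 106 and 110 CPM in Arid2 KO lines, against 547, 438 and 593 CPM in Smarcb1 KO lines (log2 change -2.31 ± 0.22, adjusted p = 0.00156).

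A smaller set, also chosen after values were seen, had the Arid2 KO lines apart from the 9 other vehicle lines. Inpp4b, a phosphatase of phosphoinositides, was at 1.79, 0.838 and 0.87 CPM in Arid2 KO lines, against 122, 13.6 and 72.9 CPM in Smarcb1 KO lines, 27.1, 17.2 and 17.9 CPM in Arid1a KO lines and 10.6, 12.7 and 14.5 CPM in Braf lines. Mgmt, which removes alkyl groups from guanine in DNA, was at 0, 0.0419 and 0.915 CPM in Arid2 KO lines, against 11.6, 34.7 and 24.7 CPM in Smarcb1 KO lines, 19.5, 24.8 and 23.5 CPM in Arid1a KO lines and 12.8, 45.6 and 15.9 CPM in Braf lines. Zwint, a kinetochore protein, was at 160, 106 and 107 CPM in Arid2 KO lines, against 255, 225 and 224 CPM in Smarcb1 KO lines, 259, 258 and 289 CPM in Arid1a KO lines and 233, 255 and 236 CPM in Braf lines. Cacna1a, a neuronal calcium channel, showed yet another layout: it was at 23.2, 30.3 and 40.6 CPM in Arid2 KO lines and 50.9, 64.4 and 103 CPM in Arid1a KO lines, against 1.64, 1.41 and 0.723 CPM in Smarcb1 KO lines and 2.82, 5.24 and 3.83 CPM in Braf lines.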
